A study of Mus musculus with 24 samples.

Results

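The 38 genes described here encode plasma proteins of blood coagulation and of complement, and were read by gene name from a table of expression in mouse liver tumours. Expression is given as FPKM, a measure of sequenced fragments that is scaled by transcript length and by library depth, so levels can be set side by side between genes. All 38 names were found among 54532 entries, and each of the 38 gene identifiers matched its name. All 38 also passed the filter on low values, for which 2 or more of the 20 libraries had to reach an FPKM of 1, which left 13594 genes to test. By role, 20 of them act in coagulation and fibrinolysis and 18 in complement.

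Coagulation and complement are both cascades of proteases that circulate in plasma as inactive precursors, and hepatocytes secrete most of them. In coagulation, a chain of activated factors ends in thrombin, which turns fibrinogen into a fibrin clot that plasmin later dissolves. In complement, the classical and lectin pathways split C4, C2 and C3, and the terminal components then assemble into a pore in the target membrane. Fibrinogen, C3 and C4 are also known as acute phase proteins, whose synthesis in liver responds to interleukin-6.

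The tumours arose in FVB/N mice that carry Lap-tTA, a doxycycline-silenced activator driven by a hepatocyte promoter, and Tet-O-MYC, a human MYC transgene that it switches on. Every group carries both transgenes, and doxycycline had been withdrawn from every mouse 4 weeks after birth, with weekly imaging from 4 to 5 weeks later, so the controls are tumours too. The 20 libraries compared were vehicle at 24 h (3 libraries; a mixture of Transcutol, Solutol HS 15 and water into the peritoneum), RMC-6272 at 10 mg/kg into the peritoneum at 12 h (1), 24 h (3), 48 h (3) and 72 h (3), and sorafenib at 30 mg/kg per day by gavage at 4 h (3), 24 h (2) and 48 h (2). Shown apart are 2 libraries of doxycycline in water at 100 µg/ml, which switches the transgene off, and 2 of RMC-4627 at 10 mg/kg, both at 24 h. RMC-6272 and RMC-4627 inhibit mTOR complex 1, a kinase complex that drives protein synthesis, and sorafenib inhibits several kinases and is used against liver cancer. Times count from a second dose given 7 days after the first, and vehicle was collected at 24 h alone. As the sorafenib dose is stated per day, the number of doses may differ between the compounds. The labels do not give the age at collection or whether replicates are separate animals, so p measures the spread between these samples, which may be technical.

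The values of the 20 libraries still showed the steps of single reads, from which their depth was 17.6 to 41.7 M (mega) reads, and 34.9 M in the median library. Of the doxycycline and RMC-4627 values 3.96 to 4.47% of the low ones were whole reads, against 98.2 to 98.7% in the 20, so those columns were made in another way and their depth is unknown. RMC-6272 72 h replicate 3 was the shallowest library and had 6.24% of its FPKM in globin genes, against at most 0.546% in the other 19. Hepatocyte markers were high in every library, with Alb, serum albumin, between 732 and 12910 FPKM in the 20. The libraries carry description codes that vehicle does not share with RMC-6272 or sorafenib, so code and treatment cannot be told apart in those comparisons.

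The first question was how RMC-6272 changes these genes in the tumours by 24 h. Against vehicle 19 of the 38 rose and 0 fell, where 14.8% of all 13594 genes tested were called higher and 20.3% lower (limma, adjusted p under 0.05 over all genes). Their median log2 difference was 1.45, against -0.01 over all genes, and 37 of the 38 differences were above 0. In 27 of the 38 every treated library lay above every vehicle library, against 23.3% of all genes. Of the coagulation genes 13 of 20 rose, with a median of 1.28, and of the complement genes 6 of 18, with a median of 1.5. The largest rises were F11, Plg, Serpind1, C3 and Serping1. Together the 38 genes took 0.5004 to 0.8191% of all FPKM in vehicle and 1.30 to 1.85% at 24 h. All values below are FPKM by replicate number, differences are log2(FPKM + 1) ± SE, and adjusted p is limma's.

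**Figure D1:**
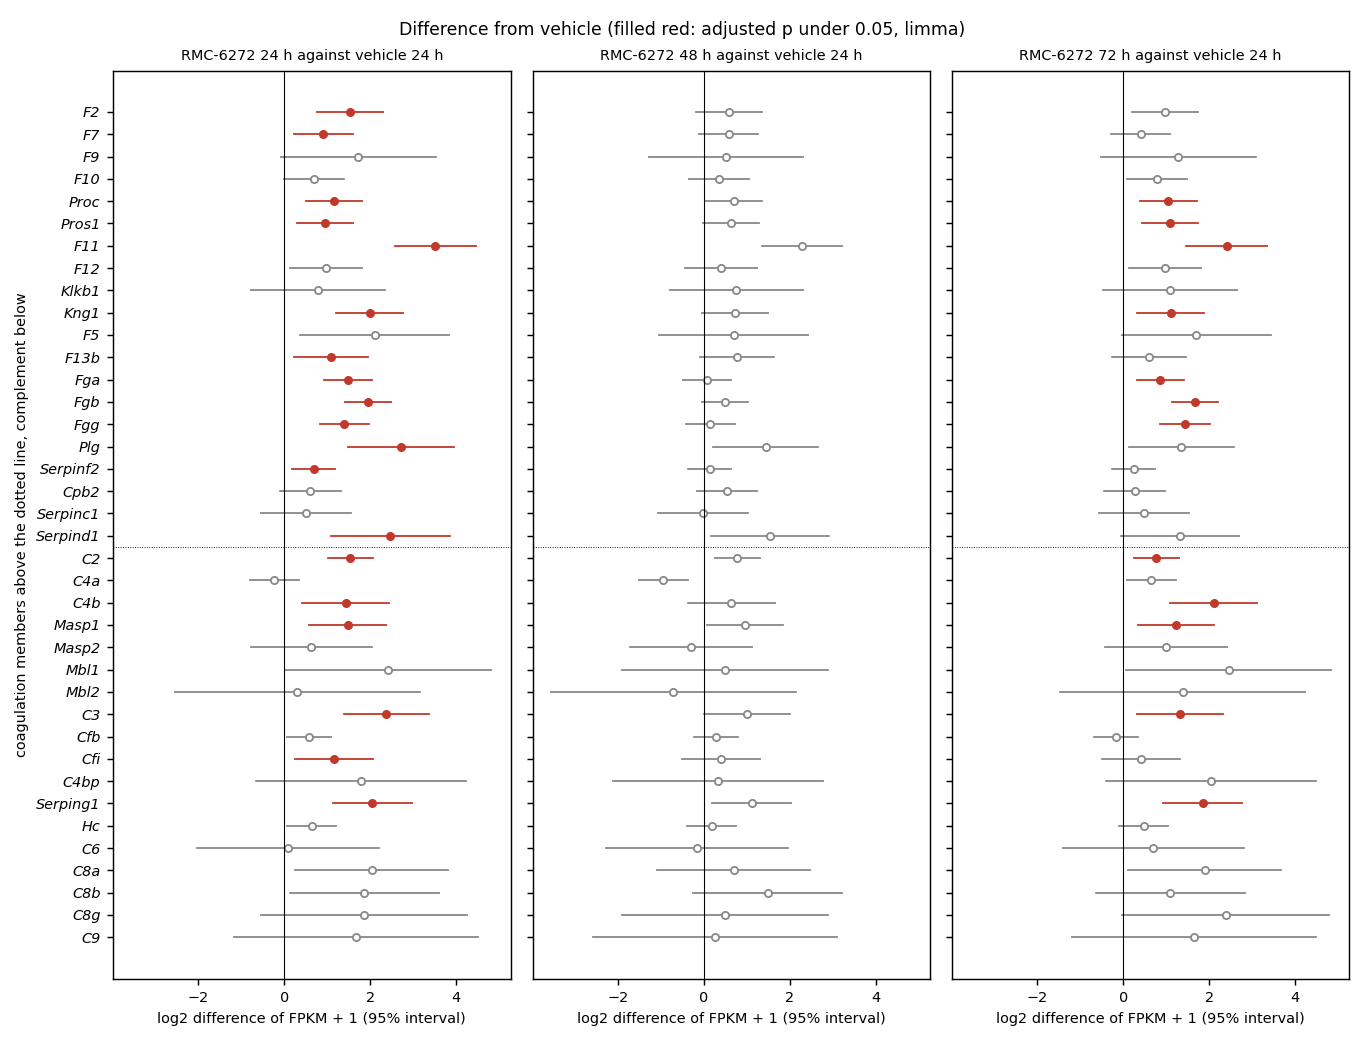
Log2 difference from vehicle of each of the 38 genes (y axis) with RMC-6272 at 24, 48 and 72 h, with 95% intervals from limma on the x axis. Filled red points passed adjusted p under 0.05. They number 19 at 24 h, 0 at 48 h and 12 at 72 h, and all lie to the right of 0.

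The forest plot of differences by time shows where the calls lie: mostly in the upper panel area of the coagulation genes at 24 h, and nowhere at 48 h. Its longest intervals belong to Mbl2, C9, C4bp, C8g and Mbl1, whose libraries scattered most.

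The vitamin K-dependent proteins need a vitamin K-driven modification to bind membranes, and 4 of 6 rose at 24 h. F2, prothrombin, was at 89.5, 83.1 and 66.6 in vehicle and 240.2, 332 and 150.1 with RMC-6272, without overlap (1.52 ± 0.36, adjusted p = 0.00548). Proc, the anticoagulant protein C, was at 107, 117 and 86.3 and then at 225, 329 and 165 (1.16 ± 0.31, adjusted p = 0.0104). F7, which starts clotting together with tissue factor, rose by 0.91 and Pros1, the cofactor of protein C, by 0.95. The rises therefore included procoagulant and anticoagulant members of the family. F10, which cleaves prothrombin, was at 50.2, 51.0 and 54.2 in vehicle and 77.0, 132 and 58.1 at 24 h and did not pass (0.69, adjusted p = 0.113). F9, the haemophilia B factor, was at 8.92, 1.88 and 3.35 and then at 8.25, 53.5 and 7.81, where replicate 2 alone stood clear of vehicle (1.72, adjusted p = 0.123).

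Among the contact system genes, whose proteins start clotting on charged surfaces, F11 and Kng1 rose. F11, coagulation factor XI, was at 3.22, 1.65 and 0.559 in vehicle and 35.1, 27.1 and 24.7 with RMC-6272. The mean went from 1.81 ± 1.34 to 28.97 ± 5.45 (SD, n = 3 each), 16.0-fold, and this was the largest difference of the 38 genes (3.52 ± 0.44, adjusted p = 0.000639). Kng1, the kininogen that releases bradykinin, was at 168, 122 and 164 and then at 640.4, 742 and 444 (1.98 ± 0.36, adjusted p = 0.00158). A close copy of Kng1 exists in mice, so its reads may be shared. F12, the factor that starts the contact pathway, was at 67.2, 75.4 and 71.0 and then at 136, 245 and 82.0. Its groups did not overlap, and it did not pass (0.97, adjusted p = 0.0682). Klkb1, plasma kallikrein and the chromosomal neighbour of F11, overlapped with vehicle, at 5.35, 2.75 and 3.64 against 5.26, 18.2 and 3.70 (0.78, adjusted p = 0.421). Another gene model on the same strand covers 43.2% of the exon bases of Klkb1 in the GENCODE M21 annotation.

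The 3 fibrinogen chains rose together. Fga, the alpha chain, was at 377, 277 and 287 in vehicle and 1023, 969.8 and 665 at 24 h (1.49 ± 0.26, adjusted p = 0.00134). Fgb, the beta chain, was at 264, 199 and 186 and then at 921, 1010 and 598 (1.94 ± 0.25, adjusted p = 0.000639). Fgg, the gamma chain, was at 369, 322 and 322 and then at 937, 1263 and 593 (1.40 ± 0.27, adjusted p = 0.00207). None of the 3 overlapped with vehicle, and the lowest treated library of each was more abundant than any vehicle library. The ratio of Fgb to Fga stayed between 0.649 and 1.42 over the 20 libraries, and that of Fgg to Fga between 0.892 and 1.95, while Fgb itself ranged from 186 to 2153. F13b, the carrier subunit of the factor that cross-links fibrin, just passed (1.08, adjusted p = 0.0496). F5, the cofactor that speeds the making of thrombin, was at 5.85, 1.65 and 0.997 and then at 7.997, 43.0 and 6.17, without overlap, and did not pass (2.10, adjusted p = 0.0575).

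The fibrinogen genes are neighbours on mouse chromosome 3, in the order Fgg, Fga and Fgb in the RefSeq annotation of GRCm38.p6. The 200 bases before the start of each are printed because the 3 moved together, and those of F11 because it moved most. They are RefSeq sequences of GRCm38.p6, read 5′ to 3′ on the gene's strand, and end at the base before the start. Capitals mark any of 3 motifs that a search on both strands found: TTGCNNAA (C/EBP), TTCNNNGAA (STAT) and CTGGGAA (interleukin-6 response element). A match on the opposite strand shows here as its reverse complement.
Fga, chr3:83025953-83026152, plus strand: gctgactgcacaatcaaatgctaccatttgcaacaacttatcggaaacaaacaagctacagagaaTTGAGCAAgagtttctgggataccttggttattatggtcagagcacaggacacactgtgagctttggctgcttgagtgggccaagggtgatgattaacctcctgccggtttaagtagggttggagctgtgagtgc
Fgb, chr3:83049864-83050063, minus strand: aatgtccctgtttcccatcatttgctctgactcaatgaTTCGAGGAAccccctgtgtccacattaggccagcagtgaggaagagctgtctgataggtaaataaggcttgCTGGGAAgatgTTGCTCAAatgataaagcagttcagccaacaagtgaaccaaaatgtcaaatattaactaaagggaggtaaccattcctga
Fgg, chr3:83007524-83007723, plus strand: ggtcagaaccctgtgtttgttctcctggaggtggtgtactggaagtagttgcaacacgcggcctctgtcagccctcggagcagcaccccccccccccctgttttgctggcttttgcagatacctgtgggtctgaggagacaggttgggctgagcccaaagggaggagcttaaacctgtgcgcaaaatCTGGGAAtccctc
F11, chr8:45262032-45262231, minus strand: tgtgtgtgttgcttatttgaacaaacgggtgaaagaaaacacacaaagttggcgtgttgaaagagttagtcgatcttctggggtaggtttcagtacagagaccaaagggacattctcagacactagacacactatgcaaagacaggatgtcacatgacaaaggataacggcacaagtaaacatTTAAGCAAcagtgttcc

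Fgb holds all 3 motifs in this stretch, with the C/EBP match from -80 to -73 counted back from the start. Fga holds 1 C/EBP match, from -135 to -128. Fgg holds 1 interleukin-6 element, from -13 to -7, and F11 holds 1 C/EBP match, from -17 to -10. RefSeq windows of 300 bases, 250 before and 50 after the start, were at hand for 28 of the 38 genes, 29 windows in all. The C/EBP letters were in 31.0% of these 29 windows and in 10.8% of all 32851, and the STAT letters in 20.7% and 8.3%. The interleukin-6 element was in 17.2% and 11.1%. CAAAGTNCA, an HNF4-type motif, was in 6.9% and 1.41%. CACGTG, the E-box that MYC binds, was in 0 of the 29 and in 7.15% of all. A match describes letters in this window and is neither a bound site nor a cause.

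Genes of clot removal and of thrombin inhibition split by member. Plg, the precursor of plasmin, was at 62.2, 36.1 and 20.8 in vehicle and 297, 284 and 168 at 24 h, the second largest rise (2.71 ± 0.57, adjusted p = 0.00312). Serpind1, heparin cofactor II, was at 31.1, 19.4 and 11.9 and then at 134, 144 and 71.7 (2.46 ± 0.65, adjusted p = 0.00967). Serpinc1, antithrombin, the main plasma inhibitor of thrombin, overlapped, at 51.1, 46.5 and 58.1 against 58.1, 138 and 49.6 (0.50, 95% interval -0.55 to 1.55, adjusted p = 0.449). Both inhibitors are hepatocyte serpins with the same target. Serpinc1 shares 34.4% of its exon bases with Zbtb37 on the opposite strand in GENCODE M21. Serpinf2, the plasmin inhibitor, rose by 0.68 (adjusted p = 0.0353), and Cpb2, which protects fibrin from plasmin, did not pass (0.60, adjusted p = 0.163).

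**Figure D2:**
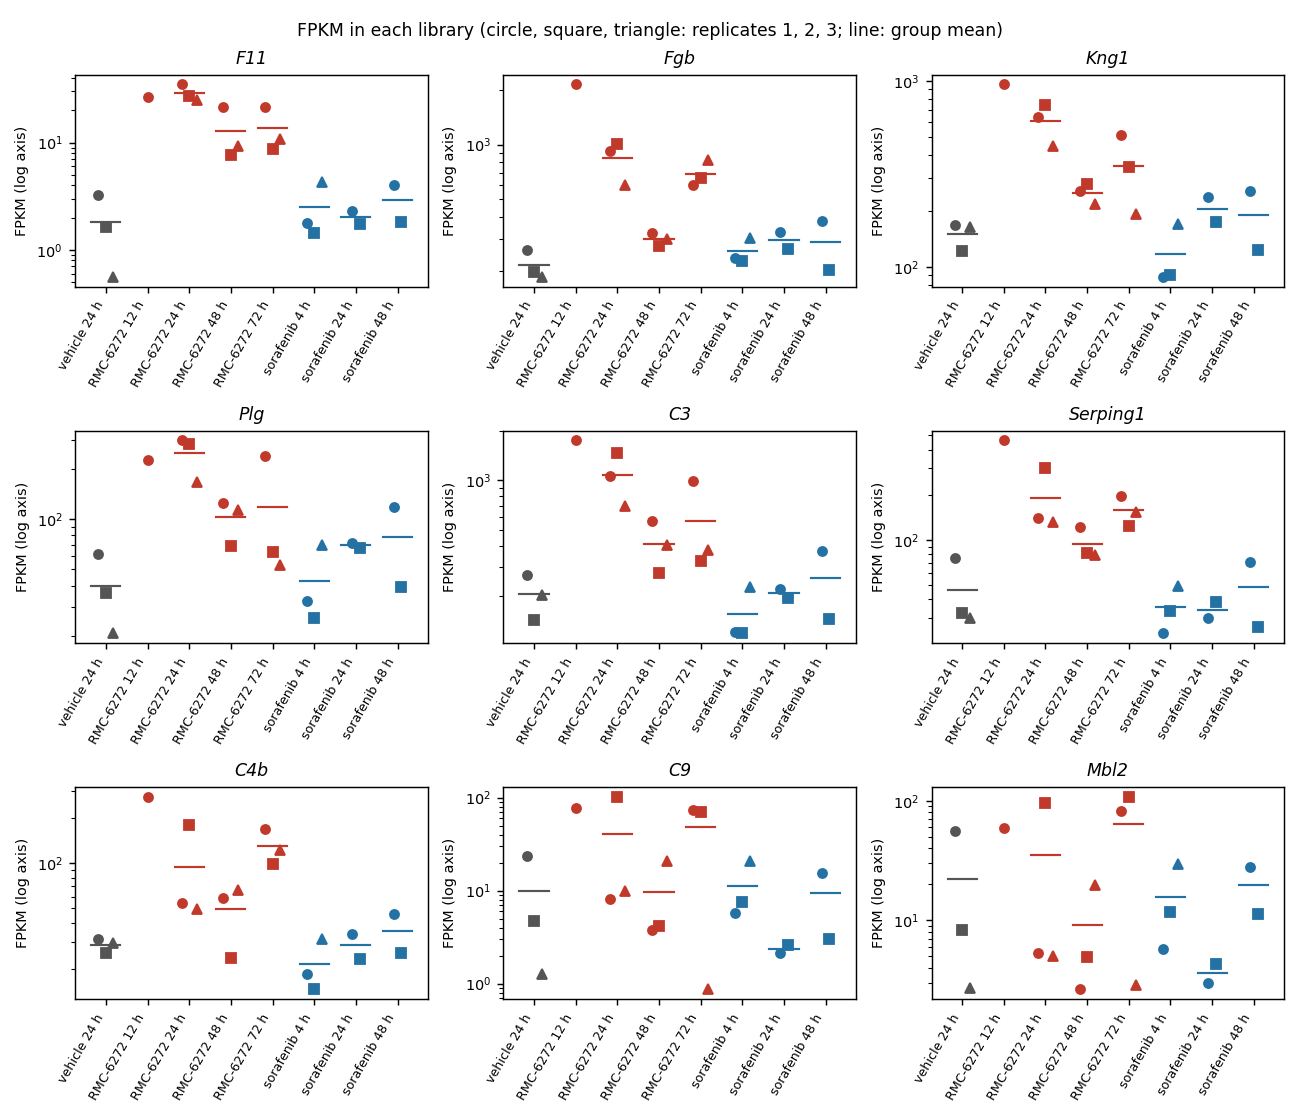
FPKM (log axis) of 9 of the 38 genes in each of the 20 libraries, by group on the x axis. Circles, squares and triangles are replicates 1, 2 and 3, and lines are group means. F11 lies at 24.7 to 35.1 at 24 h against 0.559 to 3.22 in vehicle, while Mbl2 spans 5.04 to 95.98 at 24 h and 2.72 to 55.7 in vehicle.

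The plot of levels by library sets the narrow genes beside the scattered ones. In F11, Fgb, Kng1 and C3 the RMC-6272 24 h points sit apart from vehicle and sorafenib. In C9 and Mbl2 the points of 1 group span most of the axis.

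In the early complement pathways, C3 and C2 rose, and the lectins scattered. C3, the protein on which all complement pathways meet, was at 266, 143 and 203 in vehicle and 1057, 1470 and 697 at 24 h (2.37 ± 0.46, adjusted p = 0.00214). C2, the protease of the classical C3 convertase, was at 2.86, 3.26 and 2.48 and then at 12.1, 12.6 and 6.72 (1.53 ± 0.25, adjusted p = 0.00097). C4b, the C4 protein, rose by 1.43 ± 0.47 (adjusted p = 0.0299), at 31.2, 25.4 and 29.5 against 54.0, 180.0 and 49.96. Replicate 2 was more than 3 times as high as the others of its group in C4b, and without it C4b did not pass (0.84, adjusted p = 0.144). C4a, its near-identical neighbour, had the 1 negative difference of the 38 (-0.24, adjusted p = 0.513), and reads of this pair may be split between them. Masp1, a protease that mannose-binding lectin carries, rose by 1.47 (adjusted p = 0.0143). The lectins Mbl1 and Mbl2, which bind microbial sugars, did not pass, at 2.42 and 0.30 (adjusted p = 0.104 and 0.879). Masp2, the lectin pathway's C4-splitting protease, shares 54.9% of its exon bases with Tardbp on the opposite strand in GENCODE M21 and is uncertain (0.63, adjusted p = 0.483). Cfb, the alternative pathway's protease, was near the bottom of the scale, at 0.847, 0.865 and 0.569 in vehicle and 2.17, 1.54 and 1.17 at 24 h (0.56, adjusted p = 0.0788). A read-through gene model covers 79.5% of its exon bases and 42.8% of those of C2.

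Of the complement inhibitors, Serping1 and Cfi rose. Serping1, the C1 inhibitor, which also blocks the contact proteases, was at 75.3, 32.6 and 30.2 in vehicle and 139.5, 301 and 132 at 24 h (2.05 ± 0.43, adjusted p = 0.00298). Cfi, which inactivates C3b and C4b, passed narrowly (1.15, adjusted p = 0.0481) and lost the call in 5 of the 6 fits that left out 1 library. C4bp, its cofactor, was at 9.05, 1.68 and 0.194 in vehicle and 2.71, 62.5 and 4.51 at 24 h (1.78, adjusted p = 0.238).

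None of the 6 terminal complement genes passed in limma, though 3 had an unadjusted p under 0.05 (Hc, C8a and C8b), against 46.5% of all genes, and their median difference was 1.76. C8a, a chain of the pore, was at 15.7, 5.83 and 7.98 in vehicle and 25.9, 106 and 23.0 at 24 h, without overlap (2.03, adjusted p = 0.0706). C8b, its partner chain and chromosomal neighbour, and C8g, a further chain, were at 1.86 and 1.85. C9, which forms the wall of the pore, was at 23.8, 4.74 and 1.26 and then at 8.15, 103 and 9.83 (1.67, adjusted p = 0.345). The high value of C9, as of the others, is that of replicate 2. C6, the pore's linking component, was at 0.09. Hc, complement C5, was at 5.21, 4.60 and 6.07 in vehicle and 9.77, 10.9 and 6.12 at 24 h (0.63, adjusted p = 0.0787). FVB/N mice are known to carry an Hc allele that yields no functional protein, so its transcript is no measure of C5.

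Of the 19 rises, 12 held when any 1 of the 6 libraries was left out: F2, Proc, F11, Kng1, Fga, Fgb, Fgg, Plg, Serpind1, C2, C3 and Serping1. Without vehicle replicate 3 these 12 were all that passed, where 9.34% of all genes were called higher. Without RMC-6272 24 h replicate 2, the highest library in many of these genes, 13 rose and C4a fell, and 14 rose without it and 72 h replicate 1, which also stood high. The shares of all genes called in those fits are not given, so these counts are not set against them. With the 4 doxycycline and RMC-4627 libraries in the fit 12 rose, without Proc and Kng1, where 9.69% of all genes were called higher.

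Some markers of cell types also differed from vehicle at 24 h, where 14.8% of all genes were called higher and 20.3% lower. Of the 7 hepatocyte markers 6 were found by name and 5 rose (Alb, Apoa1, Apoh, Ahsg and Apob), and their summed FPKM was 3254 to 6260 in vehicle and 12950 to 30630 with RMC-6272. Of the 6 macrophage markers 2 rose, Cd68 (1.38) and Lyz2 (1.60), with a sum of 389 to 513 in vehicle and 1061 to 1221 at 24 h. Of the 5 markers of stellate cells and fibroblasts 1 rose, Pdgfrb (1.79), with sums of 40.5 to 89.7 and 65.1 to 126. Of the 4 cholangiocyte markers 3 were tested and Krt7 fell by 2.40. None of the 4 neutrophil markers passed in limma, with 1 below an unadjusted p of 0.05 (46.5% over all genes). The neutrophil markers summed to 1.28 to 2.92 in vehicle and 10.8 to 38.5 at 24 h. T cell markers summed to 1.915 to 2.499 in vehicle and 3.55 to 4.66 at 24 h. Endothelial markers summed to 7.12 to 17.9 in vehicle and 16.2 to 27.2 at 24 h. Red cell markers summed to 33.8 to 313 and 64.5 to 129, and platelet markers to 1.44 to 2.36 and 1.31 to 3.69. The endothelial, red cell and platelet sums overlapped with vehicle, as did those of stellate cells and of cholangiocytes. No marker of these lists was at 0 in a whole group. Their part in the rises was not tested. In bulk tissue, fewer cells of a type and less RNA per cell cannot be told apart.

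Other genes of these pathways were counted from lists made beside the 38 genes. For scale, limma called 14.8% of all genes tested higher than vehicle at 24 h, and 20.3% lower. Its unadjusted p lay below 0.05 for 46.5% of all genes, so small counts in these lists can be read against these shares. Of 18 further liver-made plasma proteins 16 were tested, and at 24 h 9 rose and 0 fell, and the median of the list was 1.29. Among them were the C1 proteases C1s1 (1.94) and C1ra (1.03), the complement and lipid chaperone Clu (2.29), the serpins Serpina10 (1.38) and Serpina5 (0.78), Hgfac (2.36), Fetub (2.24) and Thpo (0.59). None of the 10 tested of 12 genes of the vessel wall and tissue factor side passed in limma, with 1 at an unadjusted p under 0.05. The smallest p belonged to Plaur, the urokinase receptor (1.09 ± 0.50), and F3, tissue factor, at a mean of 0.76 FPKM against 1.35 in vehicle (-0.44 ± 0.22). Of 5 genes of the vitamin K cycle and of factor secretion none passed, also with 1 at an unadjusted p under 0.05. These were led by Vkorc1l1, a vitamin K epoxide reductase (-0.43 ± 0.18), and Mcfd2, which escorts factors out of the endoplasmic reticulum (0.34 ± 0.29). Of 13 complement receptors, C1q chains and cell-bound regulators 11 were tested and 3 rose: C3ar1 and C5ar1, receptors of the C3a and C5a peptides (1.23 and 0.70), and Cr1l (0.43). Of 15 acute phase genes 11 rose, with a median of 2.68 over the list. They were Fgl1 (4.03), Orm1 and Orm2 (3.77 and 2.20), Lcn2 (3.48), and Saa1 and Saa2 (3.40 and 2.77). The others were Itih3 and Itih4 (2.68 and 3.19), Cp (3.13), Hpx (2.22) and Lbp (1.71). In 7 of the 15 every 24 h library lay above every vehicle library. Among those called, Saa1, Saa2, Orm1 and Hpx overlapped with vehicle. Saa1 was at 28.79, 152.1 and 4.564 against 5.254, 0.9086 and 0.824. Replicate 2 was the highest 24 h library in each called gene except Itih3 and Lbp. Calls of this list with a library left out are not given. Of 15 liver transcription factors and interleukin-6 signalling genes 5 rose: Cebpa (1.33), Foxa3 (1.10), Prox1 (0.58), Stat3 (0.91) and Il6st, the shared receptor chain of interleukin-6 (1.37).

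The SD within groups was above 1 on the log2 scale in 10 of the 38 genes: Mbl2, C9, C4bp, C8g, Mbl1, C6, F9, C8a, F5 and C8b, from 1.81 down to 1.10. The other 28 lay between 0.29 and 0.99. Over all genes tested 2.10% had an SD above 1, and the median SD was 0.27 against 0.57 for the 38 genes. Just inside and outside this bound were C8b at 1.10 and Klkb1 at 0.99. In 9 of the 10 genes the 4 highest of the 20 libraries were RMC-6272 24 h replicate 2, RMC-6272 72 h replicates 1 and 2 and the 12 h library, and in C8b they were 3 of the 4 highest. Vehicle replicate 1 was the highest vehicle library in all 10. Among the other 28 genes these 4 libraries were the 4 highest in 6 (Klkb1, Serpinc1, F12, F10, Proc and C4a) and 3 of the 4 highest in 15. Vehicle replicate 1 was the highest of its group in 16 of the 28. All 4 are RMC-6272 libraries and were named from these same values, and the share over all genes was not counted. Alb was also highest in those 4 libraries, at 12910, 10700, 8792 and 9846 FPKM, and highest among vehicle libraries in replicate 1. The part of the hepatocyte markers in this scatter was not tested.

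**Figure D3:**
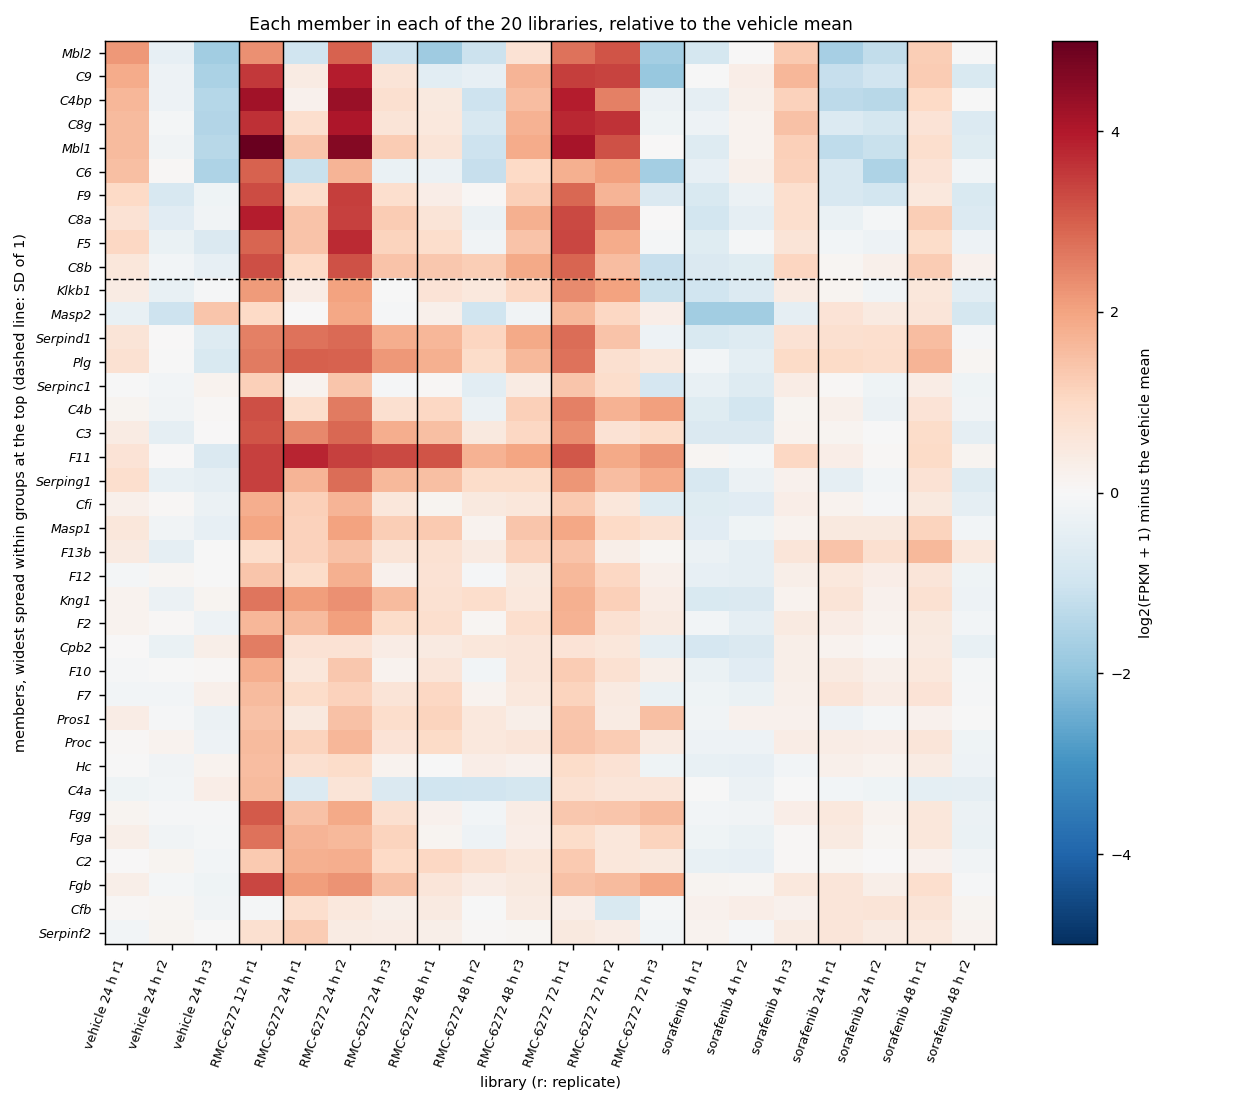
Difference of log2(FPKM + 1) from the vehicle mean (colour) of each of the 38 genes (y axis, widest spread within groups at the top) in each of the 20 libraries (x axis). Above the dashed line are the 10 genes with an SD above 1, whose median in RMC-6272 24 h replicate 2 is 3.59 against 0.87 and 0.81 in replicates 1 and 3.

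The heat map of all libraries shows this scatter as columns. In the 10 genes the medians of the RMC-6272 72 h replicates were 3.32, 2.46 and -0.50, and those of the vehicle replicates 1.53, -0.25 and -1.39. In the other 28 genes the 24 h replicates were at 1.15, 1.79 and 0.73, so replicate 2 was the highest there too, by less. At 24 h 19 of these 28 rose, with a median of 1.15, and 0 of the 10, with a median of 1.81. Since the spread is part of the test, this split describes the calls and is no test of a difference between the sets.

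**Figure D4:**
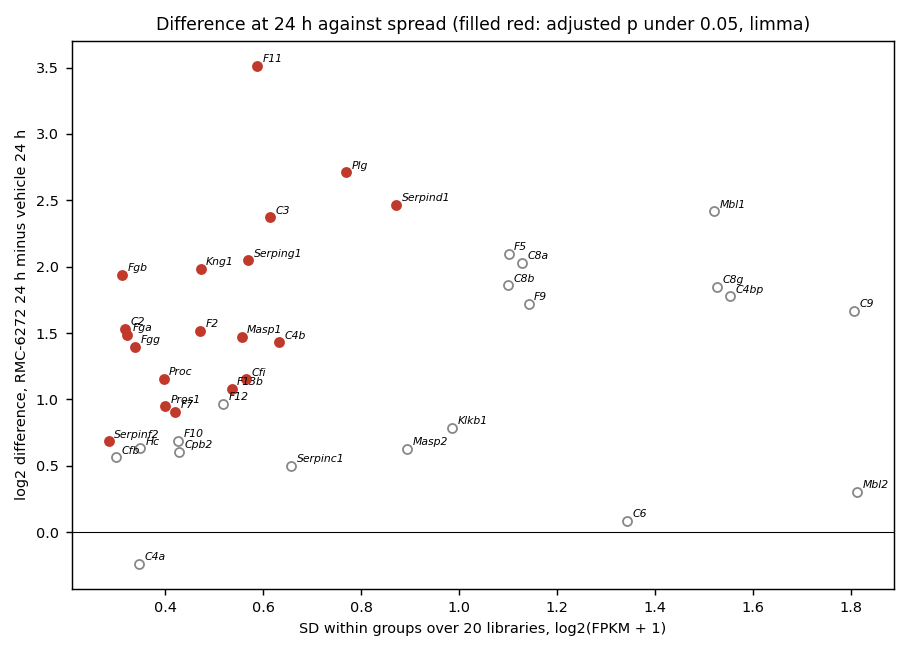
Log2 difference of RMC-6272 24 h from vehicle (y axis) against the SD within groups over the 20 libraries (x axis), 1 point for each of the 38 genes. Filled red points passed adjusted p under 0.05 in limma. All 19 lie at an SD below 1, and the open points to the right, such as Mbl1 at 2.42, lie as high as many filled ones.

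The scatter plot of difference against spread places C8a, C8b, F5 and Mbl1 at differences of 1.86 to 2.42, beside Kng1 and Serping1, with a wider spread. For these genes the data do not give a size: the 95% interval of Mbl1 ran from 0.02 to 4.81 and that of C9 from -1.17 to 4.51.

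RMC-6272 at 12 h was measured in a single library, whose values were not tested. In it 36 of the 38 genes lay above every vehicle library, against 36.1% of all genes, with Cfb and Masp2 as the exceptions. It was the highest of the 20 libraries in 17 of the 38, and in 4.39% of all genes. Fga, Fgb and Fgg stood at 2037, 2153 and 2834 FPKM, and C3 at 1749. Cpb2 was at 387 there and between 35.5 and 109 in the other 19 libraries. The hepatocyte markers of this library summed to 22720 and the macrophage markers to 1533, against at most 6260 and 513 in vehicle. Red cell and neutrophil markers summed to 1967 and 70.03, against at most 313 and 2.92, and T cell and platelet markers to 11.4 and 10.3, against at most 2.499 and 2.36. Their part in these levels was not tested.

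At 48 h none of the 38 genes passed against vehicle in limma, where 0.0441% of all genes were called higher and 0.0662% lower. An unadjusted p under 0.05 was found in 9 of the 38, against 21.9% of all genes, and in 12 all libraries lay above vehicle, against 13.9%. The median of the 38 was 0.53 and 33 differences were above 0. F11 came closest, at 21.6, 7.63 and 9.31 (2.28 ± 0.44, adjusted p = 0.059), above every vehicle library. C2 was at 0.78 (adjusted p = 0.113) and Serping1 at 1.12 (adjusted p = 0.157). C4a was below every vehicle library, at 0.741, 0.746 and 0.855 against 1.99, 2.12 and 3.32 (-0.95, adjusted p = 0.0939). Fgb was at 327, 278 and 301, still above every vehicle library (0.49, adjusted p = 0.269), and Fga at 344, 261 and 394, which overlapped with vehicle. Without RMC-6272 48 h replicate 3 F11 passed, and without RMC-6272 24 h replicate 2 and 72 h replicate 1 in the fit F11 and C2 rose and C4a fell. Shares of all genes called in these fits are not given.

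From 24 to 48 h of RMC-6272 all 38 differences were negative, with a median of -0.86 against 0.00 over all genes. Fga and Fgb fell, by 1.41 ± 0.26 and 1.45 ± 0.25 (adjusted p = 0.0445 each, limma), where 0.0956% of all genes were called lower. In 12 of the 38 every 48 h library lay below every 24 h library, against 8.96% of all genes. An unadjusted p under 0.05 was found in 12 of the 38 as well, against 18.5% of all genes. Fgg, the gamma chain, did not pass (-1.24 ± 0.27, adjusted p = 0.0544). The 2 falls were lost without RMC-6272 24 h replicate 1 or 2 or 48 h replicate 2 or 3, and 4 genes fell without 24 h replicate 3 (Fga, Fgb, Fgg and C2) or 48 h replicate 1 (F11, Fga, Fgb and Fgg). Shares of all genes called lower in these fits are not given.

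At 72 h 12 of the 38 genes rose against vehicle and 0 fell, where 10.7% of all genes were called higher and 15.8% lower. The median of the 38 was 1.09. An unadjusted p under 0.05 was found in 19 of the 38, against 42.5% of all genes. In 16 of the 38 the 72 h libraries lay above all vehicle libraries, against 13.3% of all genes. Fgb was at 596, 650.2 and 824 (1.67 ± 0.25, adjusted p = 0.00401) and Fgg at 856, 888 and 1017 (1.44 ± 0.27, adjusted p = 0.0054). F11 was at 21.6, 8.74 and 10.9 (2.41 ± 0.44, adjusted p = 0.0054). C4b, with the largest difference after F11 among those called, was at 168, 98.2 and 122 (2.11 ± 0.47, adjusted p = 0.00991), with no overlap with vehicle. Serping1 rose by 1.85 and C3 by 1.32 (adjusted p = 0.0108 and 0.0479). The others called were Proc, Pros1, Kng1, Fga, C2 and Masp1, from 0.77 to 1.23. Plg and Serpind1 spread widely, Plg at 240.1, 63.6 and 53.3, and did not pass (1.35 and 1.32, adjusted p = 0.0888 and 0.132).

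With only these 2 groups in the fit none of the 38 passed at 72 h in limma, and neither did any of the 13594 genes. There 16 of the 38 had an unadjusted p under 0.05, against 23.1% of all genes. F11, Fgb, Fgg, C4b and Serping1 rose whichever of the 6 libraries was left out. Without vehicle replicate 3 or 72 h replicate 1 these 5 alone passed, and without vehicle replicate 2 they and Proc. Shares of all genes called higher in those fits are not given. Without 72 h replicate 3, the shallow library with globin reads, 20 of the 38 rose, where 6.91% of all genes were called higher, and Fga, Pros1 and C3 were no longer among them. The 20 include Hc, C8a, C8b, C8g, C9, Mbl1 and F5. In 72 h replicate 3 the 10 scattered genes had a median of -0.50 and Fgb, Fga and Fgg were the highest of their group. There the neutrophil gene S100a8 reached 842 FPKM, while the next highest of the 20 libraries had 24.1. The sums over the neutrophil and red cell markers ran from 13.5 to 2640 and from 100.2 to 30850 at 72 h, against at most 2.92 and 313 in vehicle. Platelet markers summed to 2.66 to 247 and endothelial markers to 12.9 to 85.3, against at most 2.36 and 17.9. Hepatocyte markers summed to 9139 to 26380, against 3254 to 6260. In the main fit 10.7% of all genes were called higher at 72 h. Called higher there were 4 of 4 neutrophil, 3 of 3 tested T cell, 2 of 5 stellate and fibroblast, 2 of 6 hepatocyte, 1 of 6 macrophage and 1 of 5 endothelial markers. Their part in the 72 h values was not tested.

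None of the 38 genes passed between 72 h and 48 h or between 72 h and 24 h, where limma called 0% of all genes in either comparison. An unadjusted p under 0.05 was found in 5 and 8 of them, against 20.9% and 23.1% of all genes. From 48 to 72 h C4a was at 1.60 (adjusted p = 0.12), Fgg at 1.29 and Fgb at 1.18 (adjusted p = 0.12 each). The groups did not overlap in 7 of the 38 genes, all of them higher at 72 h, against 6.81% of all genes. Without 72 h replicate 1 the calls changed: Fgb, Fgg and C4a rose from 48 to 72 h, and F11, Kng1, Plg, Serpind1, C2, C3 and Cfb fell from 24 to 72 h. The share of all genes called without that library is not given, so these calls are not set against it.

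Sorafenib was compared with vehicle as a drug in clinical use against this cancer, and none of the 38 genes passed in limma at 4, 24 or 48 h. Of all genes 0.00736%, 0% and 0% were called higher there. An unadjusted p under 0.05 was found in 0, 2 and 1 of the 38, against 1.79%, 3.82% and 1.47% of all genes, and the median differences were -0.08, 0.14 and 0.22. F13b accounts for both later times, at 43.4 and 27.6 FPKM at 24 h and 49.99 and 22.5 at 48 h, against 21.5, 11.2 and 15.1 in vehicle. All 4 of these libraries lay above every vehicle library (1.12 ± 0.45 and 1.08 ± 0.45, unadjusted p = 0.0253 and 0.0302). Cfb is the other at 24 h (0.62, unadjusted p = 0.0345). In 13 of the 38 genes both 24 h libraries lay above all vehicle libraries, which was the case in 13.5% of all genes. F11 was at 2.30 and 1.73 and Fgb at 329 and 265 at 24 h. The 95% interval of the difference from vehicle was -0.84 to 1.26 for F11 and -0.14 to 1.07 for Fgb. With the 3 sorafenib groups averaged none passed in limma either (0% of all genes), and an unadjusted p under 0.05 was found in 0 of the 38, against 3.05% of all genes.

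RMC-6272 and sorafenib were then compared directly at 24 h. Of the 38 genes 10 were higher with RMC-6272 and 0 lower, where 7.47% of all genes were called higher and 11.3% lower. The median was 1.26, and 20 had an unadjusted p under 0.05, against 36% of all genes. In 27 of the 38 every RMC-6272 library lay above both sorafenib libraries, against 29% of all genes. The 10 were F2, Pros1, F11, Kng1, the 3 fibrinogen chains, C2, C3 and Serping1. F11 differed by 3.30 ± 0.49 (adjusted p = 0.00373), Serping1 by 2.35 ± 0.48 (adjusted p = 0.00778) and C3 by 2.31 ± 0.52 (adjusted p = 0.0113). Serping1 was at 30.2 and 38.3 with sorafenib and C3 at 218 and 195. F13b, at 35.1, 44.4 and 24.4 with RMC-6272 and 43.4 and 27.6 with sorafenib, overlapped. Without sorafenib replicate 1, or without replicate 2, none passed in limma, nor did any of all genes tested, with 12 and 11 of the 38 at an unadjusted p under 0.05, and without RMC-6272 24 h replicate 2, 6 passed. The share of all genes called without RMC-6272 24 h replicate 2 is not given. At 48 h none passed between the compounds, where limma called 0.00736% of all genes higher, and F11 (1.74), Serping1 (1.08) and C2 (0.77) had an unadjusted p under 0.05, against 12.7% of all genes. The comparisons of both compounds with vehicle share the 3 vehicle libraries, so they are not independent of each other.

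Description codes join some libraries of the 2 compounds. In the code shared by RMC-6272 48 h replicates 1 and 2 and sorafenib 4 h replicate 2, 29 of the 38 genes were higher in both RMC-6272 libraries, among them all 19 that rose at 24 h, against 34.4% of all genes. There 4 were lower in both (C4a, Mbl2, C6 and C9). The other code is shared by RMC-6272 72 h replicate 3, both sorafenib 24 h libraries and sorafenib 48 h replicate 1. There 10 of the 38 were higher in the RMC-6272 library, a smaller share than the 40.3% of all genes, and 17 were lower. Of the 19 that rose at 24 h, 9 were higher. The RMC-6272 library of this code, 72 h replicate 3, is the shallow one with globin reads. The share of all genes that were lower was not counted for either code. Times differ within each code, no code holds vehicle and RMC-6272, and these orders were not tested.

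The doxycycline and RMC-4627 columns are given as values, and no test or fold change against another group was made. The 2 doxycycline libraries were close, with a median ratio of the higher to the lower of 1.18 over the 38 genes. C2 was the 1 gene over 2-fold, at 0.716 and 0.132. The 2 RMC-4627 libraries differed by a median of 3.03-fold and by over 2-fold in 25 genes. Kng1 was at 2507 and 20.8 FPKM and F12 at 270.1 and 2.63 in RMC-4627 replicates 1 and 2, so a mean of this pair describes neither library. F11 was at 7.91 and 12.0 with doxycycline and 15.3 and 9.76 with RMC-4627. C9 was at 191 and 235 with doxycycline and 395 and 77.0 with RMC-4627. The ratio of Fgb to Fga was 5.93 and 11.5 with doxycycline and 26.1 and 0.407 with RMC-4627. Levels in these columns and ratios between genes may carry their other processing, which was not tested.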

How the data were processed

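RNA of liver tumours was sequenced in 24 libraries, and the authors deposited 1 table of FPKM values per gene and library. Alignment with STAR 2.5, counting with HTSeq 0.6.1 and the mm9 build are named, per the submitters' processing notes. The gene annotation is not given in the sources used here, and the library kit is not stated to mark strand. Reads of near-identical genes (C4a and C4b, Kng1) or overlapping genes may be split. Of the table's entries 27 with names turned into dates and 102 with a repeated symbol were left out.

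The 38 genes and all lists were chosen with earlier results of these data known. Libraries were grouped by title. Values were taken as log2(FPKM + 1), which understates changes of low genes, and genes with FPKM of at least 1 in at least 2 of 20 libraries were kept. One linear model with a mean per group (8 groups, 12 residual degrees of freedom) was fitted with limma 3.58.1 in R 4.3.3, with a trended variance, and was tested on simulated data. Adjusted p-values are Benjamini-Hochberg over all 13594 genes, two-sided, called under 0.05. SDs within groups are on the same log2 scale. Depth came from the steps that single reads leave in values of at most 20 reads (whole within 0.02), with GENCODE M21 gene lengths. These steps served for depth alone, and no count model was run on them. All pairs of replicates differed by more than sampling noise (17 pairs). The doxycycline and RMC-4627 libraries entered no comparison. Any of the 38 genes could be named, with values in each library first for those called within each role, and genes of the other lists where called, or else the 2 of a list with the smallest unadjusted p. Some of these genes are not reported here. Alternatives were another pseudocount, filter, scaling, set of libraries and block, and leaving out each library.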

Additional observations from a re-analysis of the deposited data

Results flagged for a closer look

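Between RMC-6272 and sorafenib at 24 h the difference itself passed limma's test in 10 of the 38 genes, all higher with RMC-6272, against 7.47% of all genes. On the log2 scale it was 3.30 for F11, 2.35 for Serping1, 2.31 for C3, 1.54 for Kng1, 1.48 for C2, 1.47 for Fgb, 1.26 for F2, 1.21 for Fga, 1.13 for Pros1 and 1.05 for Fgg. Sorafenib at 24 h had 2 libraries, and these calls depend on both, as given above. Between 24 and 48 h of RMC-6272 the difference passed for Fga, at -1.41, and for Fgb, at -1.45. Each kept its call in 2 of the 6 fits that left out 1 library. In the single RMC-6272 12 h library, which enters no test, 36 of the 38 genes lay above every vehicle library, against 36.1% of all genes.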

How the results depend on the processing

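No result changed its direction. Of the counts of called genes 313 stayed within 1.5 times and 35 did not. Counts of 0 that stayed at 0 are among the 313, and most counts were 0 in the main fit. The tally therefore says little of the counts above 0, which moved as given below. With all 24 libraries in the fit 12 genes rose at 24 h, 4 at 72 h, 3 against sorafenib at 24 h, and 0 fell from 24 to 48 h (of all genes 9.69%, 5.22%, 3.72% and 0%). With no filter on low values 5 rose at 72 h and 0 fell from 24 to 48 h (2.25% and 0.038% of all genes). With only the groups compared in the fit both counts were 0, for the 38 and for all 13594 genes. Quantile normalization left 1 fall from 24 to 48 h (0.257% of all genes). The cause of these moves was not tested.

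With 1 library left out the rises at 24 h numbered 12 to 21 and the falls 0 to 1, the rises at 48 h 0 to 1 and at 72 h 5 to 20, and those against sorafenib at 24 h 0 to 10. Falls from 24 to 48 h numbered 0 to 4, rises from 48 to 72 h 0 to 3, and rises and falls from 24 to 72 h 0 to 1 and 0 to 7. An alternative chosen after seeing the data left out RMC-6272 24 h replicate 2 and 72 h replicate 1. It gave 1 fall at 24 h, 7 rises at 72 h, 0 falls from 24 to 48 h, 3 rises from 48 to 72 h, and 1 rise and 3 falls from 24 to 72 h. The share of all genes called moved with the libraries fitted as well. It is given above for only some of the fits with libraries left out. In the main fit 14.8% of all genes rose at 24 h, 10.7% at 72 h and 7.47% against sorafenib at 24 h.

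Replicate numbers did not pair the samples: deviations of same-numbered samples correlated at -0.50 to 0.49 over 52 pairs, and 7 of 19 samples correlated best with their own number. With the replicate block 18 genes rose at 24 h (Cfi was lost), 12 at 72 h, 11 against sorafenib and 1 at 48 h (F11). There 14.5%, 9.78%, 7.44% and 0.11% of all genes were called higher. From 24 to 48 h 3 fell, against 0.36% of all genes. With the description code as a random block (9 codes, consensus correlation 0.15) 15 rose at 24 h and 8 at 72 h. Of all genes 13.1% and 9.28% were called higher there. The 2 or 3 libraries per group and the depth of 17.6 to 41.7 M reads limit what small changes can be seen.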

Other observations

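At 72 h of RMC-6272 the lists beside the 38 genes held calls in both directions, where 10.7% of all genes were called higher and 15.8% lower in limma. Of the 15 liver transcription factors and interleukin-6 signalling genes 5 rose and 1 fell. Cebpb, a C/EBP factor of the acute phase, was at 154, 140 and 549 FPKM in replicates 1 to 3 against 33.7, 75.0 and 62.8 in vehicle, and Socs3, a feedback inhibitor that interleukin-6 induces, at 5.08, 8.08 and 28.4 against 2.04, 3.26 and 4.85. Of 10 tested genes of the vessel wall side 2 rose and 1 fell. Plaur, the urokinase receptor, was at 4.97, 4.50 and 33.7 against 1.81, 3.64 and 2.14, Procr, the protein C receptor, at 1.42, 1.43 and 6.03 against 1.06, 0.76 and 0.375, and F2rl1, a protease-activated receptor, which fell, at 3.55, 7.28 and 1.201 against 10.3, 5.36 and 11.1. In these 5 genes replicate 3, the library with high globin and neutrophil genes, stood farthest from vehicle, and its part in the calls was not tested. C1qa and C1qb, chains of the complement initiator that macrophages make, rose by 1.27 and 1.15, and there replicate 1 was the highest, with C1qa at 376, 188 and 278 against 102, 159 and 84.8.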
